A study of Mus musculus with 51 samples.

Results

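The collagen, laminin and integrin genes, together with *Fn1* and *Sparc*, were followed through mesoderm formation from mouse embryonic stem (ES) cells triggered by 20 ng/ml Bmp4. They were taken by symbol, as every gene named Col with a chain number, every laminin alpha, beta or gamma chain and every integrin alpha or beta symbol, which takes in the integrin beta-like gene *Itgbl1*, and they make up 85 of the 24538 genes in each of the 9 RNA-seq tables. There were 44 collagen genes, 11 laminin genes and 28 integrin genes beside *Fn1* and *Sparc*. Of these, 35 exceeded 1 FPKM (fragments scaled to the length of the transcript and the size of the library) in at least 1 of the 20 columns, and 50 did not. Those 35 comprised 13 collagens, 8 laminin chains and 12 integrin chains beside *Fn1* and *Sparc*. The members just above the limit were *Itgb3* (highest value 1.04 FPKM), *Col6a2* (1.26 FPKM), *Col8a2* (1.29 FPKM) and *Col4a5* (1.51 FPKM), and those just under it were *Col1a1* (0.946 FPKM), *Col11a1* (0.93 FPKM) and *Col16a1* (0.898 FPKM). The highest value of each of the 50 low members had a median of 0.246 FPKM.

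The samples fall into 14 conditions. Wild-type (WT) cells of the F1G4 line were taken at the embryoid body stage before Bmp4 (ES) and on day 1, day 2 and day 3. *Eomes* KO, *T* KO and *Eomes* *T* double KO (dKO) cells of the same line, made with paired CRISPR/Cas9 nicks around the promoter and first exon of the T-box genes, were taken on day 2 and day 3, with the double mutant derived from *Eomes* KO cells. *Smad4* KO cells, in which Cre had removed a loxP-flanked first exon, were taken on day 1 and day 2 beside cells of the same 129S/SvEvxC57BL/6 background that keep the loxP-flanked *Smad4* alleles and served as their WT. All lines were grown on feeder cells, which were removed before aggregation, and all conditions but ES had received Bmp4. The labels give 2 samples for each F1G4 WT stage and 1 for every other condition, 18 in all, but each table holds 1 value per condition, so the spread between cultures could not be measured and no test was possible. Legends of the study speak of averaged replicates, and how many libraries stand behind each KO column could not be settled. A gene was called differentially expressed (DE) if it exceeded 1 FPKM in either column and the columns differed more than 2-fold. Each main count of DE members is given beside the percentage of all genes called in the same comparison. Member counts at other settings, given further on, lack that percentage. The 3 F1G4 KO lines shared 1 WT column per day, so that their ratios are not independent of one another.

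The targeted genes were examined first. *Eomes* was at 2.42 FPKM in *Eomes* KO cells against 9.42 FPKM in WT cells on day 2, and at 0.276 against 20.3 FPKM on day 3. *T* was at 6.64 FPKM in *T* KO cells against 44.8 FPKM on day 2, and at 3.00 against 323 FPKM on day 3. In dKO cells *Eomes* was at 1.24 and 0.346 FPKM and *T* at 2.77 and 1.93 FPKM on the 2 days. Both genes were thus lower in their mutants on both days, with residual signal. *Smad4* itself was at 39.4 FPKM in *Smad4* KO cells against 33.8 FPKM in WT on day 1 and at 46.8 against 39.3 FPKM on day 2, a value for the whole transcript that does not test the loss of 1 exon. In *Smad4* KO cells on day 2 *T* was at 0.891 FPKM against 26.6 FPKM in WT. The genes not targeted differed as well. *T* was at 22.3 against 43.1 FPKM in *Eomes* KO cells on day 2, short of 2-fold, and at 4.46 against 334 FPKM on day 3, and *Eomes* was at 24.7 against 9.81 FPKM and 4.83 against 19.6 FPKM in *T* KO cells.

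Basement membranes are thin sheets of matrix on which epithelial cells rest, built from a network of laminins, each a trimer of 1 alpha, 1 beta and 1 gamma chain, and a second network of type IV collagen, linked by nidogen and perlecan. Fibrillar collagens such as types I, II, III and V instead form the fibres of interstitial matrix, together with fibronectin. Cells hold on to both through integrins, pairs of an alpha chain, which largely sets the ligand, and a beta chain. Mesoderm formation in the embryo involves an epithelial-to-mesenchymal transition, in which cells leave a basement membrane and move through fibronectin-rich matrix.

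The upstream sequences of a pair of members are shown because they recur in the comparisons of the T-box mutants: *Col5a1* (chr2:27886381-28039510, plus strand), which was DE in opposite directions on day 2 and day 3 in *Eomes* KO cells, and *Lamb3* (chr1:193294353-193343878, plus strand), which was lower on day 2 in all 3 F1G4 KO lines. The bases are from RefSeq, build GRCm38.p6, and run 5′ to 3′ on the plus strand, for *Col5a1* chr2:27886175-27886380 (206 bases) and for *Lamb3* chr1:193301744-193301948 (205 bases). Each window opens 250 bases before an annotated transcript start and stops where an annotated exon of the gene begins. The *Lamb3* window lies inside the span of the gene, downstream of a first exon of a longer transcript. Capitals mark GGCGCC, a Smad-binding sequence that reads the same on both strands.
Col5a1: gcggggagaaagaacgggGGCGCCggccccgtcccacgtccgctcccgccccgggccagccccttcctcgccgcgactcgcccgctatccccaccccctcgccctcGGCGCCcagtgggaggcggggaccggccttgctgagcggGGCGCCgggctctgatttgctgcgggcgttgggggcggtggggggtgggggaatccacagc
Lamb3: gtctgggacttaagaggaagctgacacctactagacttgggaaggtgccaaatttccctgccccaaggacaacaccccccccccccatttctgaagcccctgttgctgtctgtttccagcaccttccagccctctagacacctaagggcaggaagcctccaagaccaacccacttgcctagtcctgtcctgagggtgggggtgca
The T-box motif TCACACC, the Tcf/Lef motif CTTTGA and the Smad motif GGCGCC, none of which contains another, were sought on both strands in the 250 bases before each start. *Col5a1* held GGCGCC at 3 places, with first bases at -232, -144 and -105 from the start, and neither of the other motifs, and the printed *Lamb3* sequence held none of the 3. Of the 35 members above 1 FPKM, 24 had such a sequence. GGCGCC stood in 5 of these 24 (20.8%; *Col4a1*, *Col5a1*, *Itgb1*, *Lama5* and *Lamb1*), against 9.6% of 32851 promoters and 10.8% of 27025 genes. CTTTGA stood in 4 of the 24 (16.7%; *Col6a1*, *Col6a2*, *Col9a2* and *Itga1*), against 13.8% of promoters and 15.8% of genes, and TCACACC in 0 of the 24, against 3.3% of promoters and 3.8% of genes. Over all 61 members with a sequence, the shares were 11.5% for GGCGCC (7 members), 21.3% for CTTTGA (13 members) and 1 member for TCACACC. A match is a run of letters and not a measured binding site.

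In WT cells the summed level of all members was 450 FPKM at ES, 417 FPKM on day 1, 537 FPKM on day 2 and 632 FPKM on day 3. A few abundant genes weigh most in these sums. From ES to day 3 *Itgb1* went from 92.3 to 220 FPKM and *Sparc* from 78.2 to 116 FPKM, while *Col18a1* went from 68.5 to 39.2 FPKM. Of the 29 members that exceeded 1 FPKM at some stage, 16 were highest on day 3, 8 at ES, 3 on day 2 and 2 on day 1. Type IV collagen and the integrin chains *Itga3* and *Itgb1* were higher on day 3 than at ES, and the laminin chain *Lama1* and the integrin chain *Itgb7* were below 1 FPKM by then. On day 1, 6 of 23 members examined were DE lower than at ES (26.1%, against 5.84% of all genes) and 3 were higher (13.0%, against 7.7%). On day 2, 6 of 26 were lower (23.1%, against 9.08%) and 9 higher (34.6%, against 14.2%), and on day 3, 4 of 27 were lower (14.8%, against 12.6%) and 11 higher (40.7%, against 18.5%). The median log2 ratio of the members against ES was -0.34, 0.36 and 0.75 on the 3 days, beside -0.05, -0.04 and -0.02 for all genes. The share of lower members was thus above that of all genes on day 1 and day 2, and near it on day 3. The share of higher members was above that of all genes on day 2 and day 3. On day 1 the share of higher members rested on 3 genes. None of these differences was tested.

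**Figure D1:**
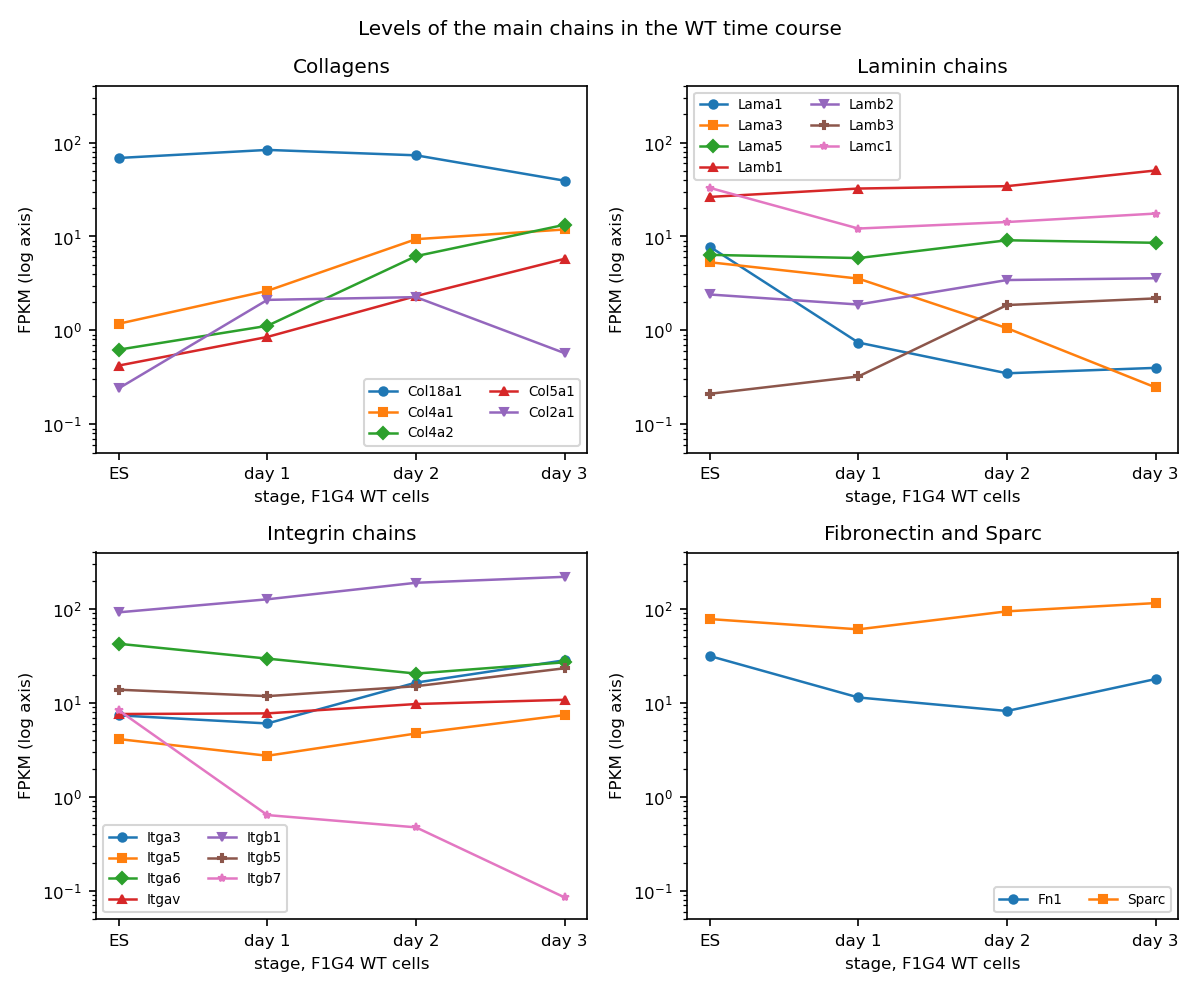
FPKM values (log axis) of 21 members in WT F1G4 cells at ES, day 1, day 2 and day 3, in panels for collagens, laminin chains, integrin chains, and Fn1 with Sparc; each point is 1 deposited column, with no error bar because the columns pool the samples. Col4a1, Col4a2 and Col5a1 climb through all 4 stages, while Lama1, Lama3 and Itgb7 drop, and Fn1 is lowest on day 2 at 8.22 FPKM.

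Among the collagens of basement membranes, the type IV chains *Col4a1* and *Col4a2*, which together form the commonest type IV trimer, were higher at every later stage. *Col4a1* was at 1.18, 2.64, 9.36 and 11.9 FPKM and *Col4a2* at 0.623, 1.12, 6.17 and 13.3 FPKM from ES to day 3. The log2 ratios on day 3 against ES were 3.33 and 4.42. *Col4a2*, the lower of the pair until day 2, thus became the higher on day 3. *Col18a1*, which carries the endostatin domain at its end, was the most abundant collagen throughout, at 68.5, 83.5, 73.1 and 39.2 FPKM, with its lowest value on day 3. It made up 91.7% of the summed collagen FPKM at ES and 47.9% on day 3, when *Col4a1* and *Col4a2* made up 14.5% and 16.2%. The X-linked chain *Col4a5* was also DE on day 3 (log2 ratio 4.66), and the median log2 ratio of all genes on chromosome X against ES was then 0.328, beside which that value stands. Its part in the *Col4a5* value was not tested.

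Fibrillar collagens were low. *Col5a1*, a minor fibrillar chain that takes part in fibre nucleation, was at 0.422, 0.852, 2.32 and 5.79 FPKM from ES to day 3, and *Col2a1*, the chain of cartilage and notochord collagen, at 0.241, 2.11, 2.26 and 0.572 FPKM. *Col5a1* was thus higher at each stage, whereas *Col2a1* was high on day 1 and day 2 alone. The chains of type I and type III collagen, *Col1a1*, *Col1a2* and *Col3a1*, which fibroblasts make among other cells, stayed below 1 FPKM in all 20 columns. Among other collagens, the type IX chain *Col9a3* was DE higher on all 3 days (log2 ratios 2.41, 2.40 and 1.80), and the type VI chain *Col6a1* was DE on day 3 (log2 ratio 5.03), where 9 fragments at ES leave a counting error of 0.49.

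Laminin chains exchanged places, most of all the alpha chains. *Lama1*, the alpha chain of laminin-111 and the first to be made in the embryo, was at 7.79 FPKM at ES and at 0.742, 0.349 and 0.399 FPKM on day 1, day 2 and day 3. *Lama3*, the alpha chain of epithelial laminin-332, was at 5.32, 3.56, 1.06 and 0.247 FPKM. *Lama5*, the alpha chain of laminin-511 and the matrix chain on which pluripotent cells grow well, was at 6.37, 5.89, 9.11 and 8.56 FPKM and was not DE at any stage. As a share of the summed FPKM of the 5 alpha chains, *Lama1* made up 39.7% at ES and 4.0% on day 3, *Lama3* 27.1% and 2.5%, and *Lama5* 32.5% and 86.0%. The 3 chains were thus close to equal at ES, and *Lama5* prevailed on day 2 and day 3.

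**Figure D2:**
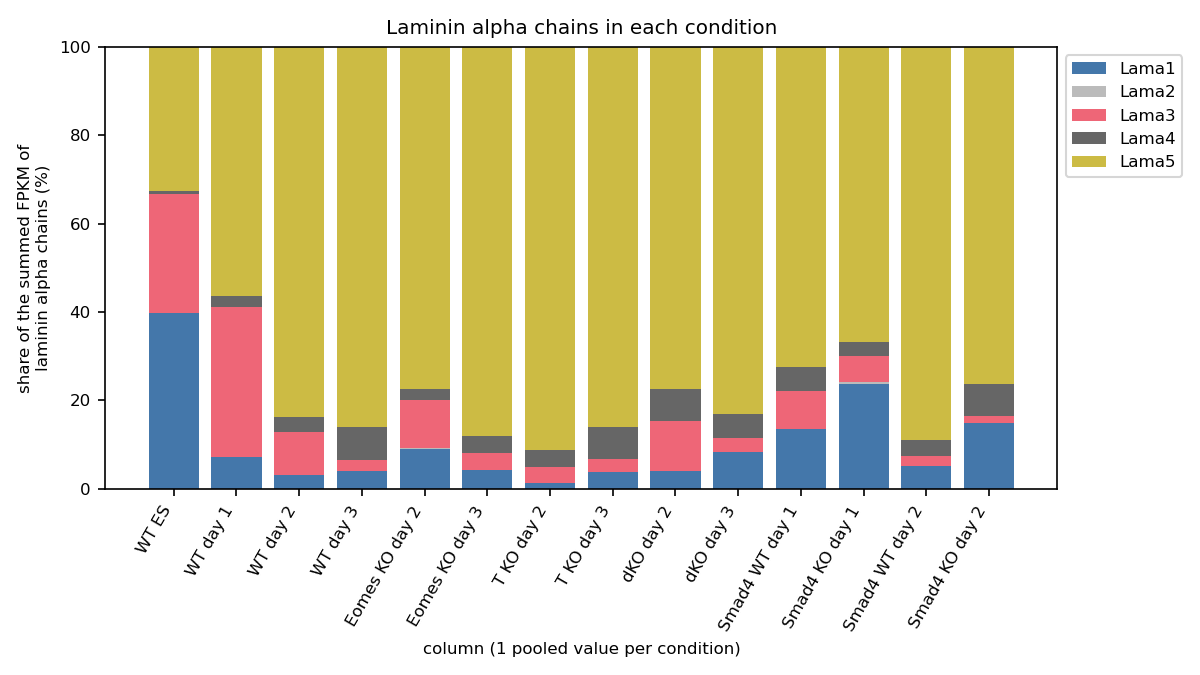
Share (percent) of each laminin alpha chain in the summed FPKM of the 5 alpha chains, as stacked bars for the 14 conditions, each bar 1 deposited column without replicates. Lama5 goes from 32.5% at ES to 86.0% on day 3 in WT cells, and Lama1 takes 23.6% and 14.8% in Smad4 KO cells on day 1 and day 2, against 13.5% and 5.2% in WT cells of that line.

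The beta and gamma chains moved less uniformly. *Lamb1*, the beta chain of laminins 111 and 511, was the most abundant laminin chain from day 1 on, at 26.4, 32.4, 34.3 and 50.4 FPKM from ES to day 3, below the DE limit. *Lamc1*, the common gamma chain, was at 33.0 FPKM at ES and at 12.1, 14.2 and 17.5 FPKM on the 3 days, with log2 ratios of -1.44 and -1.21 on day 1 and day 2. *Lamb3*, the beta chain that pairs with *Lama3* in laminin-332, was DE higher while *Lama3* was DE lower, at 0.211, 0.323, 1.86 and 2.19 FPKM (log2 ratio 3.37 on day 3). *Lamc1* was thus highest at ES and *Lamb1* and *Lamb3* on day 3.

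Among the integrins, *Itgb1*, the beta chain that pairs with most alpha chains, had the highest level, with 92.3, 127, 190 and 220 FPKM from ES to day 3, and made up 80.2% of the summed beta chain FPKM at ES and 91.8% on day 2. *Itgb7*, the beta chain of leukocyte integrins, was at 8.35 FPKM at ES and at 0.640, 0.474 and 0.085 FPKM thereafter (log2 ratio -6.62 on day 3). *Itgb5*, a beta chain paired with *Itgav*, was at 13.8, 11.8, 15.1 and 23.4 FPKM. *Itgb1* and *Itgb7* thus went in opposite directions. Of the laminin-binding alpha chains, *Itga6* was at 42.7, 29.7, 20.6 and 27.1 FPKM and *Itga3* at 7.38, 6.05, 16.5 and 28.5 FPKM, so that *Itga3* went from 11.0% to 37.0% of the summed alpha chain FPKM and *Itga6* from 63.9% to 35.2%. The fibronectin receptor chain *Itga5* was at 4.13, 2.74, 4.73 and 7.43 FPKM and the vitronectin receptor chain *Itgav* at 7.63, 7.75, 9.74 and 10.8 FPKM, both short of the DE limit. At ES *Itga6* stood far above the other alpha chains, and on day 3 *Itga3* had reached its level.

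*Fn1*, fibronectin, followed a course of its own, with 31.6 FPKM at ES, 11.4 FPKM on day 1, 8.22 FPKM on day 2 and 18.0 FPKM on day 3 (log2 ratios -1.47 on day 1 and -1.94 on day 2). *Sparc*, a secreted collagen-binding glycoprotein, was at 78.2, 60.8, 94.5 and 116 FPKM and was not DE. *Fn1* was thus lowest on day 2, when the collagen IV chains were already DE higher.

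The WT cells of the *Smad4* line gave a measure of how far unmutated cells of different lines lie apart. Compared with F1G4 WT cells, 5 of 25 members were beyond the DE limit on day 1, beside 11.0% of all genes, and 4 of 24 on day 2, beside 5.08%. With the columns scaled to a median ratio of 1, these included on day 1 *Col9a2* (log2 ratio 1.71), *Itga8* (2.58), *Lama3* (-2.23) and *Lamb3* (1.70), and on day 2 they were *Col2a1* (1.03), *Col5a2* (2.48), *Itga1* (1.11) and *Lama3* (-1.97). The median size of the members' log2 difference was 0.523 and 0.307 on the 2 days. *Lama3* passed the limit on both days, and the laminin chain *Lamb3* and the integrin chains *Itga1* and *Itga8*, which recur in the KO comparisons, on 1 day each. The line, its strain, the *Smad4* alleles and the table cannot be told apart in this comparison.

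The members' part in each KO comparison is drawn in the plot of called shares. On day 2 DE members were mostly lower in the F1G4 mutants, and on day 3 mostly higher in *Eomes* KO and dKO cells, as deposited. In TPM (FPKM scaled to the same sum in each column) with a minimum of 1 TPM, which admits more genes, 4 were lower and 5 higher in dKO cells on day 3, and over the genes above 1 FPKM the TPM ratios gave 1 and 4. Of all genes, 1771 and 1317 were called at these settings, against 1266 as deposited. In bulk samples, fewer cells of a type and less RNA per cell cannot be told apart.

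**Figure D3:**
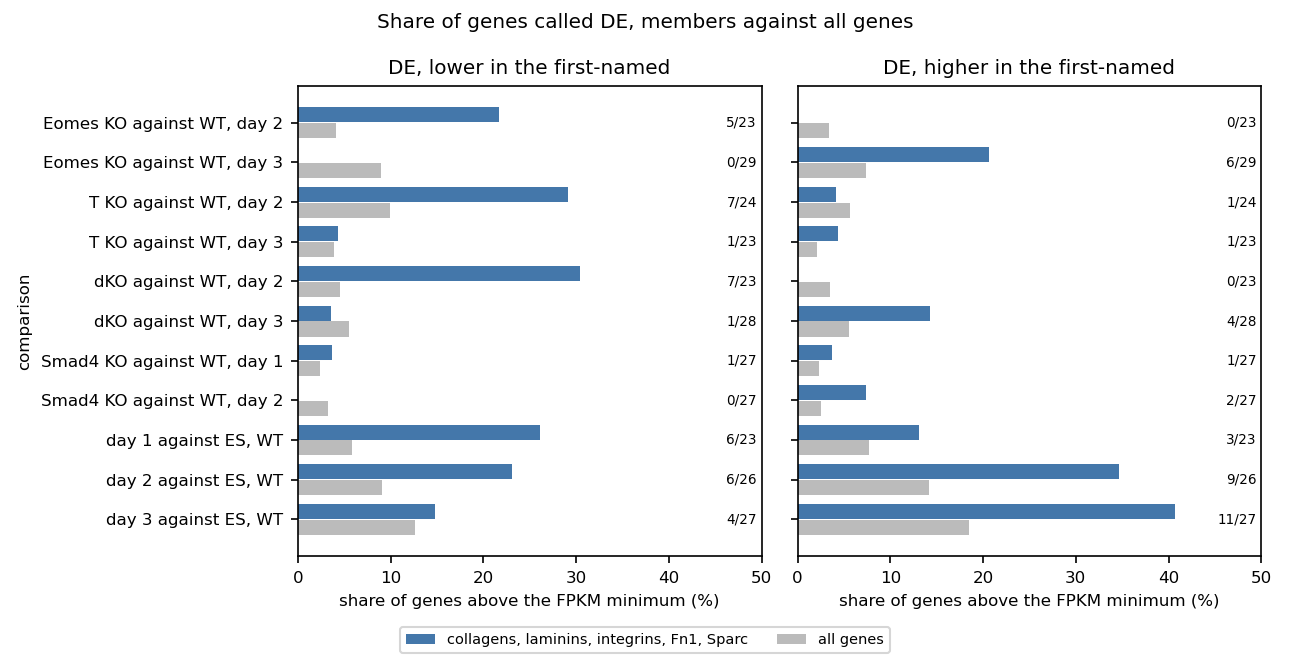
Percent of genes above the 1 FPKM minimum that were DE lower (left panel) and higher (right panel), for the members and for all genes, in the 11 comparisons; numbers at the right of each panel give members called over members examined. Members lie above all genes for lower calls on day 2 in Eomes KO (21.7% against 4.17%), T KO (29.2% against 9.93%) and dKO cells (30.4% against 4.5%), and for higher calls on day 3 in Eomes KO cells (20.7% against 7.39%).

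In *Eomes* KO cells on day 2, 5 of 23 members examined were DE lower (21.7%, against 4.17% of all genes) and 0 higher (against 3.35% of all genes), with a median log2 ratio of -0.26 against -0.01 for all genes. They included the laminin chains *Lamb3* (log2 ratio -1.77) and *Lamb2* (-1.06), the fibrillar chain *Col5a1* (-1.49) and *Itga8* (-1.28), the alpha chain of the nephronectin receptor. *Lamb3* was at 0.540 FPKM against 1.84 FPKM in WT cells and *Col5a1* at 0.819 against 2.30 FPKM. With length and GC trends removed, *Lamb2* (-0.89) was not DE. The estimated counting errors of the named log2 ratios ranged from 0.10 to 0.18. These were chains of low level, and the abundant ones were not among them: *Lamb1* was at 34.7 FPKM, *Lama5* at 8.52 FPKM, *Itgb1* at 217 FPKM and *Col18a1* at 80.3 FPKM, each within 2-fold of WT. With pseudocount 1 added to both columns, 0 of the 5 passed the 2-fold limit.

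In *T* KO cells on day 2, 7 of 24 members were DE lower (29.2%, against 9.93% of all genes) and 1 was higher (4.17%, against 5.7%), with a median log2 ratio of -0.38 against -0.01. Laminin chains were again among them, with *Lamb3* at 0.509 against 1.91 FPKM (log2 ratio -1.91) and, in this line alone, *Lamb1* at 13.9 against 35.4 FPKM (-1.35, counting error 0.04). *Sparc* was at 31.1 against 97.3 FPKM (-1.65, counting error 0.04). *Lamb1* and *Sparc* are abundant transcripts, whose counting errors are small beside the ratios. The integrin alpha chains *Itga8* (log2 ratio -2.18), the collagen receptor chain *Itga1* (-1.67) and *Itgav* (-1.13) were lower too. *Itgb8*, a beta chain that with *Itgav* binds latent Tgfb, was the higher member, at 2.21 against 0.364 FPKM (log2 ratio 2.60). *Lama5*, at 18.7 against 9.40 FPKM (log2 ratio 0.99), lay at the limit without passing it, and took 91.3% of the alpha chains, against 83.8% in the WT time course. The type IV chains parted in this column, with *Col4a1* at 13.4 FPKM and *Col4a2* at 4.39 FPKM, where WT cells had 9.36 and 6.17 FPKM. *T* KO day 2 stood apart from the other day 2 columns, with 1775 of all genes called (844 and 894 in *Eomes* KO and dKO cells) and an estimated 18100000 fragments, the fewest of any column. The part of this in the members' values was not tested.

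In dKO cells on day 2, 7 of 23 members were DE lower (30.4%, against 4.5% of all genes) and 0 higher (against 3.48%), with a median log2 ratio of -0.69 against -0.01. *Lamb3* (-1.77), *Lamb2* (-1.17), *Col5a1* (-1.33), *Itga8* (-1.56), *Itga1* (-1.25) and *Fn1* (-1.39) were among them. *Fn1* was at 3.10 FPKM, against 4.21 FPKM in *Eomes* KO, 10.1 FPKM in *T* KO and 8.22 FPKM in WT time-course cells. In this comparison the ratio fell with transcript length over all genes, from a median log2 of 0.288 among the shortest 25% of genes to -0.280 among the longest, and the members above 1 FPKM are long, with a median of 5784 bases against 2795 bases for all genes with a transcript. After removal of length and GC trends, *Lamb3* and *Itga8* were still DE, whereas *Fn1* (-0.90), *Itga1* (-0.98), *Col5a1* (-0.76) and *Lamb2* (-0.74) were not. Rescaling of all columns to TPM moved every log2 ratio of this comparison by -0.41. TPM ratios over the genes above 1 FPKM gave 14 lower and 0 higher members. Of all 11195 genes examined, 1718 were then called in either direction, against 894 as deposited. Higher calls were then 11.8% of the calls of all genes, against 43.6% as deposited. A pseudocount of 1 left 1 member DE.

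*Lamb3* and *Itga8* were therefore DE lower on day 2 in each of the 3 T-box mutants, each against the same WT column. With a pseudocount of 1, neither was DE in *Eomes* KO or dKO cells, and *Lamb3* was not DE in *T* KO cells either. *Itga8* was at 2.06 FPKM in WT time-course cells, 0.835 FPKM in *Eomes* KO, 0.464 FPKM in *T* KO and 0.690 FPKM in dKO cells. Neither gene was DE lower in the day 3 columns, where *Itga8* was below 1 FPKM in every line. On day 3 *Lamb3* was at 2.19 FPKM in WT and 1.90, 3.23 and 2.50 FPKM in the mutants.

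**Figure D4:**
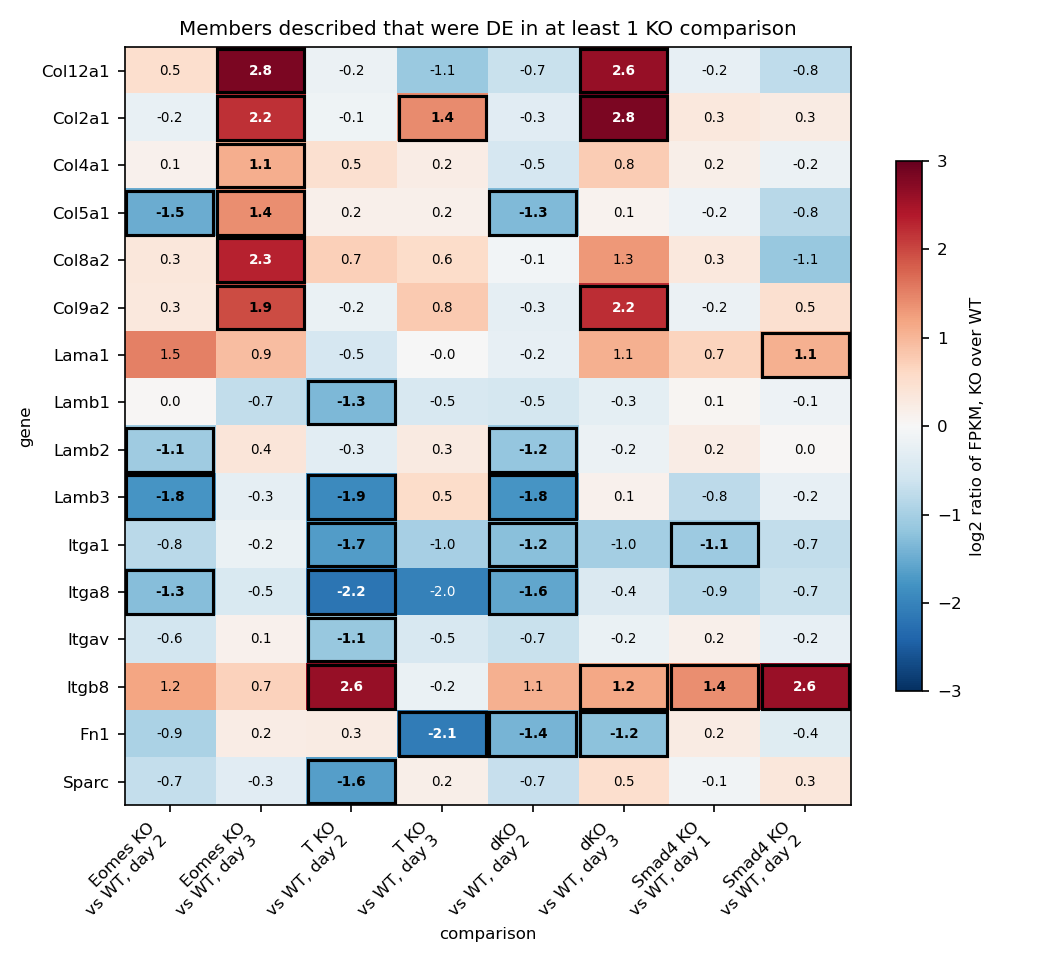
Log2 ratio of KO over WT FPKM for 16 members (rows) in the 8 KO comparisons (columns), one value per pair of deposited columns; boxed bold values are DE and unboxed values beyond 1 in size are below 1 FPKM in both columns. Lamb3 and Itga8 are negative on day 2 in all 3 T-box mutants, Col12a1 and Col2a1 are positive on day 3 in Eomes KO and dKO cells, and Itgb8 is positive in Smad4 KO cells on both days.

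On day 3 the direction differed. In *Eomes* KO cells 0 of 29 members were DE lower (against 9.01% of all genes) and 6 were higher (20.7%, against 7.39%), with a median log2 ratio of 0.36 against -0.04 for all genes. All 6 were collagens. This comparison had the most genes called of the 8 KO comparisons, 1907 in all, and the part of that in the members' values was not tested. *Col12a1*, a fibril-associated collagen of tendon and fascia, was at 4.10 against 0.575 FPKM (log2 ratio 2.83, counting error 0.09). *Col5a1* was at 15.9 against 6.05 FPKM (1.39), and *Col4a1* at 26.4 against 12.4 FPKM (1.09). *Col12a1* and *Col5a1* were thus higher here than in any of the other 13 conditions. *Col2a1* (2.20), *Col8a2* (2.30, 1.29 FPKM) and *Col9a2* (1.95, 1.30 FPKM) were higher from low levels. *Col4a2* was at 21.0 FPKM, *Lama5* at 16.5 FPKM, *Itga3* at 39.0 FPKM and *Itgb5* at 37.4 FPKM, above the WT time-course values but below the DE limit. Other abundant members lay lower, also short of the limit, with *Lamb1* at 31.3 against 52.7 FPKM and *Itgb1* at 174 against 230 FPKM. Here the ratio over all genes went up with length, from a median log2 of -0.264 among the shortest 25% of genes to 0.173 among the longest, and with length and GC trends removed *Col5a1* (0.89) and *Col4a1* (0.79) were not DE, while *Col12a1*, *Col2a1*, *Col8a2* and *Col9a2* still were.

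In dKO cells on day 3, 1 of 28 members was DE lower (3.57%, against 5.53% of all genes) and 4 were higher (14.3%, against 5.51%), with a median log2 ratio of 0.24 against -0.03. *Col12a1* was at 3.52 FPKM (log2 ratio 2.62, counting error 0.09), *Col2a1* at 4.20 FPKM (2.82), *Col9a2* at 1.55 against 0.335 FPKM (2.21) and *Itgb8* at 1.45 FPKM (1.15). *Col5a1*, at 6.48 FPKM, was near the WT value, and *Col4a1* and *Col4a2*, at 20.9 and 17.1 FPKM, were above it without passing the limit. *Fn1* was the lower member, at 8.03 against 18.7 FPKM (-1.22, counting error 0.04), and missed the limit (-0.97) with length and GC trends removed. *Col12a1* and *Col2a1* were therefore DE higher in both lines with a targeted *Eomes* gene. In *T* KO cells on day 3 *Col2a1* was DE higher too, at 1.55 against 0.577 FPKM, and *Col12a1* was at 0.258 FPKM, against 0.551 FPKM in WT time-course cells.

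In *T* KO cells on day 3, 1 of 23 members was DE lower (4.35%, against 3.92% of all genes) and 1 higher (against 2.12%), with a median log2 ratio of 0.18 against -0.01, shares near those of all genes. In TPM with a minimum of 1 TPM, 6 were lower and 1 higher, and TPM ratios over the genes above 1 FPKM gave 1 and 1. Of all genes, 1003 and 678 were called at these settings, against 679 as deposited. *Fn1* was the lower member, at 4.26 against 18.2 FPKM (log2 ratio -2.09, counting error 0.04), the lowest of the day 3 values. It was at 22.1 FPKM in *Eomes* KO cells. *Col2a1* was the higher member (log2 ratio 1.42). *Fn1* on day 3 thus ordered as *Eomes* KO and WT, then dKO, then *T* KO, with a single column behind each value. *Lamb1* and *Sparc*, DE lower in *T* KO cells on day 2, were at 36.7 and 132 FPKM on day 3.

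**Figure D5:**
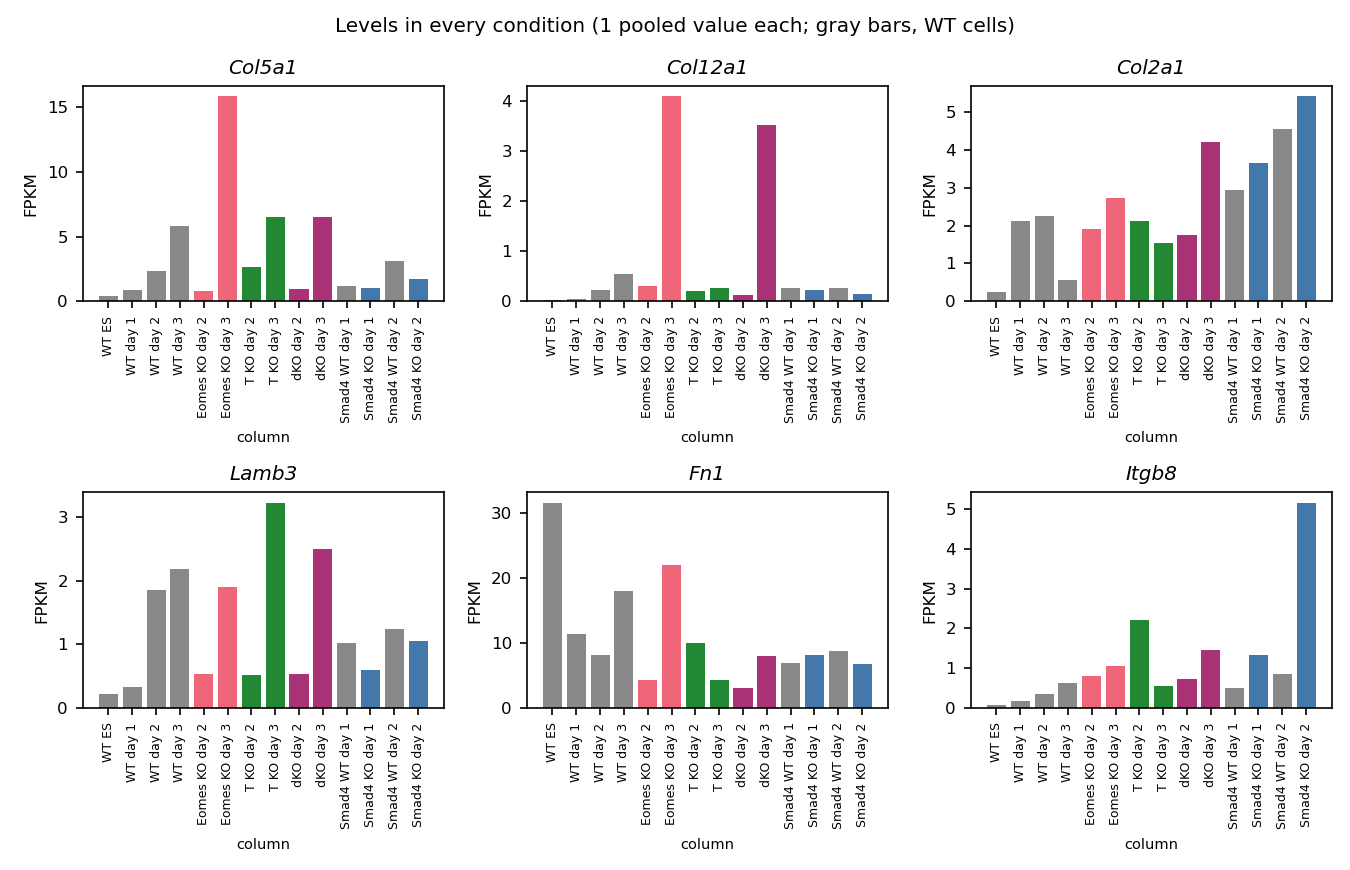
FPKM values of Col5a1, Col12a1, Col2a1, Lamb3, Fn1 and Itgb8 in the 14 conditions as bars from 0 (gray for WT), each bar 1 deposited column with no error bar. Col12a1 is above 1 FPKM in Eomes KO and dKO cells on day 3 alone, at 4.10 and 3.52 FPKM, and Itgb8 is highest in Smad4 KO cells on day 2, at 5.17 FPKM.

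*Col4a1* (chr8:11198423-11312889, minus strand) and *Col4a2* (chr8:11312805-11449287, plus strand) lie head to head, overlap by 85 bases, and could exchange reads there where counting did not use strand. *Itgb1* is on the same chromosome. The median log2 ratio over all genes of chromosome 8 was between 0.166 and 0.229 in the 6 F1G4 KO comparisons, 0.193 in *Eomes* KO cells on day 3 and 0.211 in dKO cells on day 3, and its part in the values of these 3 genes was not tested. WT cells had *Col4a2* above *Col4a1* on day 3 (13.3 and 11.9 FPKM), as did *T* KO cells (18.1 and 13.9 FPKM), whereas *Eomes* KO and dKO cells had *Col4a1* above *Col4a2*.

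Without *Smad4*, few members and few of all genes were DE. On day 1, 1 of 27 members was lower (3.70%, against 2.41% of all genes) and 1 higher (against 2.36%), and on day 2, 0 of 27 were lower (against 3.21%) and 2 higher (7.41%, against 2.56%). The median log2 ratios were 0.02 and -0.14, beside -0.00 and -0.01 for all genes. The median size of the log2 ratio, without its sign, was 0.24 and 0.33 for members and 0.18 and 0.17 for all genes. *Itgb8* (chr12:119162803-119238276, minus strand) was higher on both days, at 1.34 against 0.506 FPKM on day 1 (log2 ratio 1.40, counting error 0.17) and at 5.17 against 0.862 FPKM on day 2 (2.58, counting error 0.10). On day 2 it made up 3.2% of the beta chains in *Smad4* KO cells. *Itgb8* was below 1 FPKM in both WT lines on day 1 and day 2. *Itga1* was lower on day 1, at 0.840 against 1.78 FPKM (-1.09), and *Lama1* was higher on day 2, at 1.25 against 0.597 FPKM (1.07), just past the limit. *Lama1* took 23.6% of the alpha chains in *Smad4* KO cells on day 1 and 14.8% on day 2, against 13.5% and 5.2% in WT cells of that line. *Lamb3* was at 1.05 against 1.25 FPKM on day 2, so that this laminin chain, low in the T-box mutants on day 2, was not DE in *Smad4* KO cells. The difference between the lines was not tested. *Col5a1* was at 1.73 against 3.09 FPKM, *Itga6* at 40.0 against 24.8 FPKM and *Sparc* at 120 against 95.0 FPKM, each short of 2-fold.

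The genes that work with the members were taken from lists of 15 to 25 genes. Their calls are as deposited, and the length and GC trends described above were not removed for them. Of 15 partners in basement membranes, 4 of 11 examined were DE lower and 0 higher in *Eomes* KO cells on day 2 (4.17% of all genes lower), 4 of 11 lower in *T* KO cells (9.93%), 6 of 12 lower in dKO cells (4.5%) and 4 of 11 lower in *Smad4* KO cells (3.21%). *Dag1*, the laminin receptor dystroglycan, the list's gene with the highest single value, was at 24.0 FPKM at ES and 36.9 FPKM on day 3 in WT cells and was not DE in any comparison, with log2 ratios of 0.95 in *Eomes* KO cells on day 3 and 1.00 in *T* KO cells on day 2 just inside the limit. *Tinagl1*, a matrix protein of basement membranes, was lower in all 4, with log2 ratios of -1.48, -1.41, -1.18 and -2.20, and in WT cells was at 0.17 FPKM at ES and 29.4 FPKM on day 3. On day 3 it lay above WT in *T* KO cells (log2 ratio 0.95) and in *Eomes* KO and dKO cells (0.48 in each) without being DE. On day 3, 2 of 13 were lower and 2 higher in *Eomes* KO cells (all genes 9.01% and 7.39%), 3 of 13 lower in *T* KO cells (3.92%), and 4 of 13 lower and 1 higher in dKO cells (5.53% and 5.51%). The laminin-binding linker *Nid1* and the perlecan gene *Hspg2* were the higher ones in *Eomes* KO cells among the more abundant, at 10.8 against 5.17 FPKM and 20.5 against 7.11 FPKM, whereas *Nid2* was lower in dKO cells on both days (log2 ratios -1.25 and -1.78). DE lower partners were thus found on day 2 in every mutant, the *Smad4* line included, where *Lamb3* was not called.

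Of 23 interstitial glycoproteins, 8 of 12 examined were DE higher and 0 lower in *Eomes* KO cells on day 3 (all genes 7.39% and 9.01%), among them *Tgfbi*, a collagen-binding protein, at 15.9 against 7.25 FPKM. In dKO cells 2 of 10 were higher on day 3 (5.51%) and 3 of 7 lower on day 2 (4.5%), with *Thbs1*, a thrombospondin, at 5.24 against 13.7 FPKM. In WT cells 5 of 8 were higher and 2 lower on day 3 against ES (all genes 18.5% and 12.6%), with *Thbs1* at 17.4 against 0.485 FPKM and *Spp1*, osteopontin and an integrin ligand, at 2.34 against 161 FPKM. Of 23 genes that fold, modify or trim collagen, 9 of 19 were higher and 2 lower on day 3 against ES (all genes 18.5% and 12.6%), with the collagen chaperone *Serpinh1* at 132 against 6.92 FPKM and the prolyl hydroxylase *P4ha1* at 40.8 against 5.98 FPKM, and *Pcolce*, which promotes procollagen cleavage, at 3.20 against 22.5 FPKM. The chaperone and hydroxylase were thus DE higher beside *Col4a1* and *Col4a2*. The most abundant genes of the list, the prolyl isomerase *Ppib* and the disulfide isomerase *P4hb*, were not DE, at 455 against 376 FPKM and 301 against 296 FPKM. In dKO cells on day 3 *P4ha1* was lower, at 13.4 against 42.4 FPKM.

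Of 20 proteases and inhibitors, 10 of 16 were DE higher and 3 lower on day 3 against ES (all genes 18.5% and 12.6%). The higher ones included the membrane metalloprotease *Adam9*, at 21.8 against 9.87 FPKM. On day 2 this list gave 1 lower and 2 higher of 17 in *Eomes* KO cells (all genes 4.17% and 3.35%). It gave 3 lower and 0 higher of 16 in *T* KO cells (9.93% and 5.7%) and 3 and 1 of 16 in dKO cells (4.5% and 3.48%). In *Smad4* KO cells 4 were lower and 1 higher of 16 (3.21% and 2.56%). The membrane protease *Mmp14*, which cleaves collagen, was lower on day 2 in *Eomes* KO (5.03 against 10.2 FPKM), dKO (4.32 FPKM) and *Smad4* KO cells (5.10 against 14.7 FPKM). In *Eomes* KO cells on day 3, 1 was lower and 2 higher of 17 (all genes 9.01% and 7.39%). The protease inhibitor *Timp1* was higher there, at 21.4 against 7.52 FPKM. Of 25 genes of integrin adhesion complexes, 7 of 22 were higher and 2 lower on day 3 against ES (all genes 18.5% and 12.6%). *Flna*, the actin cross-linker filamin A and the list's most abundant gene, was at 108 against 62.4 FPKM and not DE, and the tetraspanin *Cd151* was at 63.0 against 30.8 FPKM. *Ilk*, the integrin-linked kinase, was at 46.3 against 12.9 FPKM and *Zyx*, zyxin, at 12.7 against 0.75 FPKM, while *Tns3*, a tensin, was at 2.82 against 26.6 FPKM. In *Eomes* KO cells this list gave 0 calls of 22 on day 2 (all genes 4.17% lower and 3.35% higher). On day 3 it gave 4 of 23, all higher (7.39% of all genes higher). In *T* KO cells 1 of 22 was higher on day 2 (5.7%), and 0 of 21 were called on day 3 (3.92% and 2.12%). In dKO cells 1 of 22 was lower on day 2 (4.5%). On day 3, 1 was lower and 2 higher of 23 there (5.53% and 5.51%). *Smad4* KO cells had 0 calls of 22 on day 1 (2.41% and 2.36%) and 0 of 21 on day 2 (3.21% and 2.56%).

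Markers of other cells were read in the same columns. Of 12 fibroblast markers, which feeder cells would carry, *Fap* and *Dpt* were at 0 in every column, and the list without its most abundant gene *Tagln* summed to between 2.67 and 10.2 FPKM. *Tagln*, a smooth muscle and fibroblast protein, was at 231 FPKM in WT and 299 FPKM in *Eomes* KO cells on day 3, and at 230 against 936 FPKM in dKO cells. The rest of the list was highest in *Eomes* KO cells on day 3, at 10.2 against 5.58 FPKM in WT, with *Pdgfrb*, a receptor of mesenchymal cells, at 5.81 against 3.03 FPKM, beside the higher collagens, and at 5.31 against 5.56 FPKM in dKO cells. Of 12 primitive and parietal endoderm markers, *Plat*, which reached the highest level of the list, was at 2.39 against 1.51 FPKM in *Eomes* KO cells on day 3 and 2.28 against 0.366 FPKM on day 2, with the other 11 genes at 5.50 against 3.02 FPKM and 6.09 against 1.83 FPKM. *Dab2*, the most abundant of those 11, was at 2.52 against 1.34 FPKM on day 3 and 1.22 against 1.05 FPKM on day 2. In dKO cells on day 3 *Plat* was at 2.69 against 1.50 FPKM and the rest at 5.88 against 3.00 FPKM, and in *Smad4* KO cells on day 2 *Plat* was at 5.11 against 0.778 FPKM and the rest at 1.82 against 2.62 FPKM. Of 12 blood and endothelial markers, *Pf4* was at 0 in every column and *Pecam1*, which reached the highest level of the list, was at 8.37 against 3.38 FPKM in *Eomes* KO cells on day 3 and 16.6 FPKM at ES. Of 8 nascent mesoderm markers, which include the targeted genes *T* and *Eomes*, 8 were DE lower on day 3 in each T-box mutant (9.01%, 3.92% and 5.53% of all genes in *Eomes* KO, *T* KO and dKO), and 6 of 6 examined in *Smad4* KO cells on day 2 (3.21%). Of 8 pluripotent cell markers, 5 of 7 examined were lower and 1 higher in *Smad4* KO cells on day 2 (all genes 3.21% and 2.56%), with *Pou5f1*, the most abundant, at 642 against 692 FPKM. The part of these genes' cells in the members' values was not tested.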

How the data were processed

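The processed values were FPKM per gene, which the authors made and deposited with 1 column per condition. Per the labels and the submitters' processing notes, reads were trimmed with cutadapt 2.9 and aligned with HISAT2 2.1.0, and Cuffdiff 2.2.1 is among the tools named. The deposited columns were centred on one another, with a median log2 ratio of all genes between -0.05 and -0.00, and were not scaled to 1 sum.

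Ratios were taken as deposited (between the WT lines, after scaling to a median ratio of 1), without a pseudocount, over genes above 1 FPKM in either column, and called DE beyond a log2 ratio of 1. Medians used a pseudocount of 0.1. The members, roles and gene lists were chosen with earlier results of these data known. List genes were named from the 2 most abundant of each list and those DE at 10 FPKM or more, and marker genes at 0 were added after their values were seen; every DE member was open to naming. Some genes that enter the counts are not reported here by name. Fragment numbers were estimated from the steps between low values. Between 70.3% and 77.6% of low values in the KO and Smad4 line columns, and 37.5% to 54.2% in the F1G4 WT columns, lay within 0.05 of a whole fragment, for 18100000 to 56000000 fragments per column, less certain where fewer values were whole. The counting errors of the 76 member calls (log2 0.01 to 0.49, median 0.11) rest on these and cover counting error only. The WT values of 1 stage differed between tables by factors of 0.989 to 1.04. Summed FPKM ranged from 401510 to 608585 per column. Positions are those of GRCm38.p6. The calculation was tested on simulated data. Python 3.11.15, pandas 2.3.3 and numpy 2.4.6 were used.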

Additional observations from a re-analysis of the deposited data

Results flagged for a closer look

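*Col5a1* was DE in opposite directions on the 2 days in *Eomes* KO cells, with a log2 ratio of -1.49 on day 2 and 1.39 on day 3, each from 1 KO and 1 WT column. The difference between the days was not tested. With length and GC trends removed the day 3 value was 0.89, short of the limit. With a pseudocount of 1 the day 2 value fell short of it. In dKO cells *Col5a1* was lower on day 2 (-1.33) and not DE on day 3, at 6.48 FPKM. Its day 2 value there was -0.76 with length and GC trends removed, also short of the limit.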

How the results depend on the processing

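No paired analysis was possible because the columns carry no replicate numbers, and no replicate could be left out, since each column is a single value. Counts below are DE members in the order *Eomes* KO day 2, day 3, *T* KO day 2, day 3, dKO day 2, day 3, *Smad4* KO day 1, day 2, and WT day 1, day 2, day 3 against ES. Without an FPKM minimum they were 29, 32, 38, 32, 33, 36, 23, 24, 40, 58 and 56, which admits genes with almost no reads. With a minimum of 5 FPKM they were 0, 2, 3, 1, 1, 1, 0 and 1 for the KO comparisons, and 4 and 9 for day 1 and day 3 against ES. With a pseudocount of 1, *Eomes* KO day 2 gave 0, *T* KO 4 and 1, dKO 1 and 3, and *Smad4* KO 0 and 1. A pseudocount of 0.1 gave 1 for *Smad4* KO day 2. A log2 limit of 1.5 gave 1 for *Eomes* KO day 2, 5 and 1 for *T* KO, 2 and 3 for dKO, 0 and 1 for *Smad4* KO, and 5 for day 1 against ES. In TPM with a minimum of 1 TPM, which also admits more genes, *Eomes* KO gave 11 and 14, *T* KO day 3 gave 7, dKO 17 and 9, *Smad4* KO 4 and 4, and day 3 against ES 30. Calls of all genes rose as well. They went from 844 to 1444 and 1907 to 2895 in *Eomes* KO, and from 679 to 1003 in *T* KO day 3. In dKO they went from 894 to 2148 and 1266 to 1771, and in *Smad4* KO from 536 to 977 and 635 to 953. On day 3 against ES they went from 3591 to 4367. TPM ratios over the genes above 1 FPKM, chosen after seeing the data, gave 14, all lower, for dKO day 2, where 1718 of all genes were called. TPM moved the log2 ratios of *Eomes* KO by -0.22 and 0.28, *T* KO day 2 by 0.12, and dKO by -0.41 and -0.11, and the share of higher among all calls, with the 1 TPM minimum, from 44.5% to 27.1%, 45.0% to 72.0%, 36.5% to 52.0% and, for dKO day 2, 43.6% to 13.0%. The members' median in *T* KO day 3 reversed from 0.18 to -0.04 in TPM. With length and GC trends removed, a setting also chosen after seeing the data, dKO day 2 gave 3. Of 105 recomputed counts, 47 moved by over 1.5 times. Of 228 recomputed log2 ratios of called members, 198 stayed past the limit, 30 did not, 29 of them with a pseudocount of 1, and 0 reversed. Scaling all columns to a median of 0 and using the time-course WT column left all 17 counts within 1.5 times.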
